A study of Mus musculus with 5 samples.

Results

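The genes followed were Notch1, Notch2, Notch3 and Notch4, the ligands Jag1, Jag2 and Dll1, the nuclear partner Rbpj and the targets Hes1 and Hey1. Their signals came from mammary epithelial cells of mice labelled Mmp14 conditional knockout or wild type. These 10 genes were taken by name, and each was represented by the probe set annotated to that gene only, or by the one with the highest mean signal where there were several. All 10 were measured, out of 22180 genes with such a probe set. The cells came from the inguinal glands of 4-week-old mice on a congenic FVB/NJ background. All mice carried Mmp14(f/f), the floxed alleles. The 2 knockout arrays were labelled conditional knockout with MMTV-Cre+, and the 3 arrays of littermates without Cre were labelled wild type. In the knockout, Cre is driven by the mammary tumour virus promoter, which is active in mammary epithelium, so Mmp14 would be deleted only in cells where that promoter has been active. The controls carried no Cre, and an effect of Cre cannot be told apart from one of the deletion.

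Notch receptors are single-pass proteins that are activated by ligands on a neighbouring cell. Ligand binding lets an ADAM protease and then gamma-secretase cut the receptor, and the freed intracellular part joins RBPJ on DNA to switch on repressors of the Hes and Hey families. In the mammary gland Notch activity is known to favour luminal over basal fate, and in blood vessels the same pathway works in endothelial cells and pericytes. MMP14 is a membrane-anchored metalloproteinase that has been reported to cleave DLL1 at the cell surface, which is one reason to look at Notch output when Mmp14 is deleted.

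Values are log2 signals after RMA, differences are knockout minus wild type, over 2 knockout arrays and 3 wild-type ones. Differences were tested with limma, with Benjamini-Hochberg adjustment over all 22180 genes at 0.05. Of these genes 0 passed (smallest adjusted p = 0.919), and 288 had an unadjusted p under 0.05 in the same test. Mmp14 itself read 7.98 and 7.28 in the knockout and 8.15, 8.67 and 7.75 in the wild type. Knockout 2 was the lowest array, at -0.91 from the wild-type mean, while knockout 1, at -0.21, lay above wild type 3. The groups overlapped (-0.56 ± 0.39, SE; limma adjusted p = 0.919), so over all 5 arrays Mmp14 does not separate the genotypes. The luminal keratin Krt8 (11.34 to 11.48), Epcam (9.98 to 10.10) and the basal keratin Krt14 (8.96 to 9.29) were bright on every array. The endothelial adhesion gene Pecam1 read 7.64 to 8.80 and the pericyte gene Rgs5 8.77 to 9.38, so vessel transcripts were present too. In such bulk samples fewer cells of a type and less RNA per cell cannot be told apart. The labels call the arrays biological replicates without saying whether each holds 1 mouse or a pool, so the p-values reflect only how far these 5 samples spread, which may be technical in part.

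None of the 10 Notch genes passed limma's test, as 0.00% of all genes did, and their adjusted p-values lay between 0.919 and 0.923. At an unadjusted p under 0.05 there were 0 of 10, against 1.30% of all genes. The mean was higher in the knockout for 8 genes and lower for Notch1 and Notch2, with a median difference of 0.10 against 0.00 over all genes. Differences ran from -0.08 for Notch2 to 0.29 for Hey1. The groups did not overlap for 1 gene, Notch1, which was lower in the knockout, as 2.80% of all genes were; 0 of 10 were higher without overlap, against 2.63%. Of the 10 genes, 6 had their highest value on the array of knockout 2, which holds for 21.4% of all genes, and Notch1 and Notch2 had their lowest there, as 22.5% of all genes had. By array, Hes1, Rbpj, Jag2 and Notch1 varied by 0.08 to 0.18 over all arrays, Hey1, Notch3 and Notch4 stood high on knockout 2 alone, and Jag1 varied among the wild-type arrays. Dll1 was highest and Notch2 lowest on knockout 2, each with a range of 0.31 or less.

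**Figure D1:**
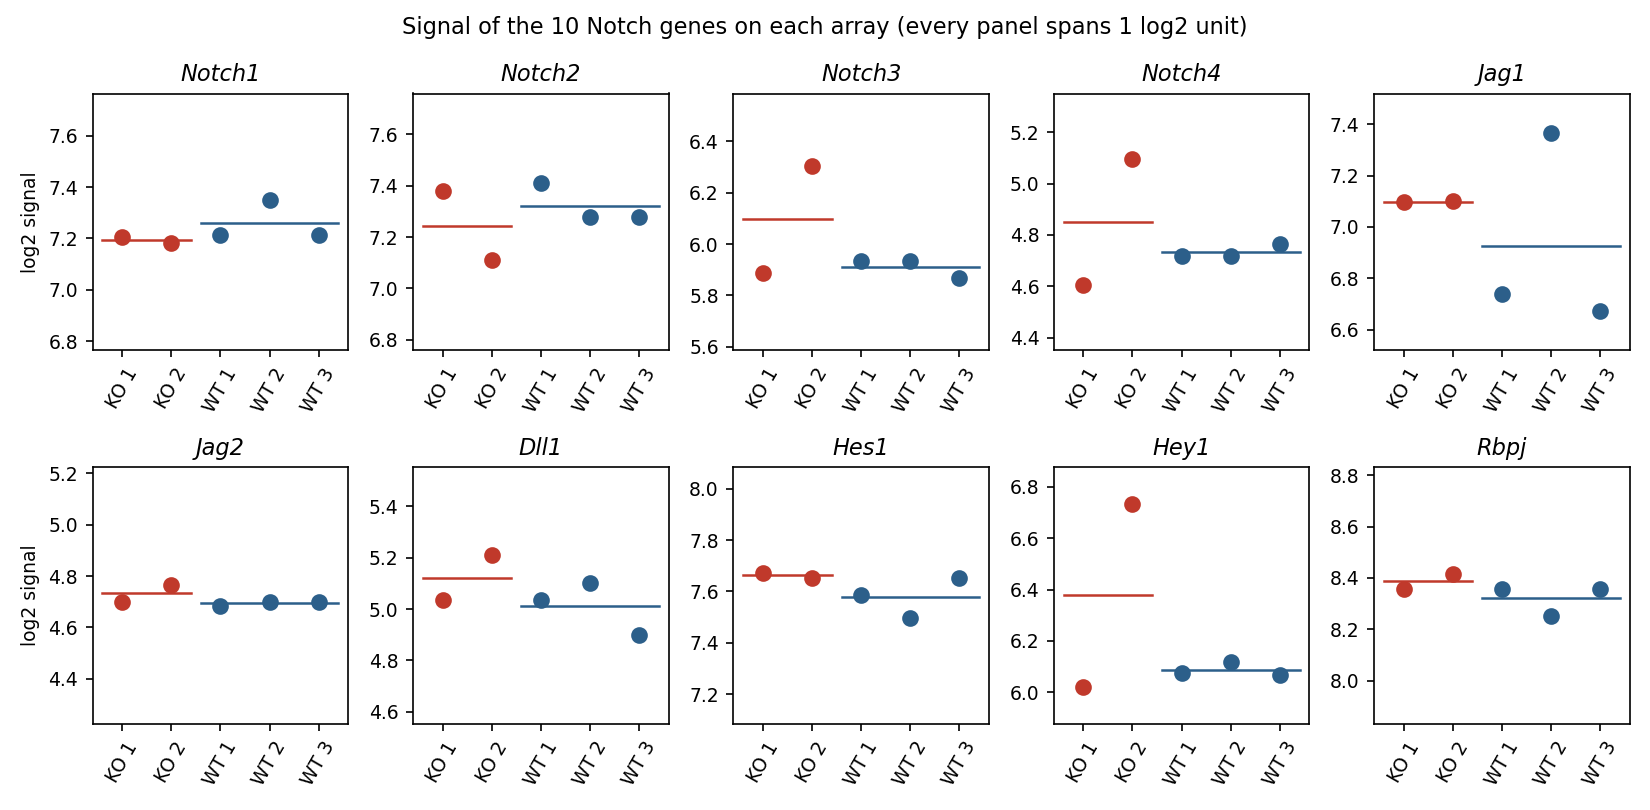
Log2 signal (y axis, 1 unit in every panel) of the 10 genes on the 2 knockout (red, KO) and 3 wild-type (blue, WT) arrays, with a line at each group mean. Hey1, Notch3 and Notch4 are high on knockout 2 alone, and Jag1 is highest on wild type 2.

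Among the receptors, Notch1, the receptor best known from T-cell development and luminal commitment, read 7.20 and 7.18 on the knockout arrays and 7.21, 7.35 and 7.21 on the wild-type arrays. Both knockout arrays were the lowest of the 5, but by 0.01 between knockout 1 and the nearest wild-type arrays. The difference was -0.07 ± 0.05 (SE; limma adjusted p = 0.919), a fold of 0.955 with a 95% interval of 0.858 to 1.06. Notch2, a receptor with broad roles in liver, kidney and B cells, read 7.38 and 7.11 in the knockout and 7.41, 7.28 and 7.28 in the wild type. Its groups overlapped, since knockout 1 lay above wild type 2 and 3 while knockout 2 was the lowest array. The difference was -0.08 ± 0.10 (SE; limma adjusted p = 0.919), and without knockout 2 it turned to 0.06.

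Notch3, the receptor typical of pericytes and vascular smooth muscle, read 5.89 and 6.31 in the knockout against 5.93, 5.93 and 5.87 in the wild type. Notch4, a receptor mainly of endothelial cells, read 4.61 and 5.10 against 4.72, 4.72 and 4.76. For both, knockout 2 was the highest array, and knockout 1 lay among the wild-type arrays for Notch3 and below them for Notch4. The differences were 0.18 ± 0.14 and 0.12 ± 0.17 (SE; limma adjusted p = 0.919 for each). Without knockout 2 both turned to negative values (-0.03 and -0.13).

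The ligands differed by little against their spread. Jag1, the Jagged ligand carried by basal mammary cells and by vessels, read 7.10 and 7.10 in the knockout and 6.74, 7.37 and 6.67 in the wild type. The knockout arrays sat between the wild-type arrays, whose spread (SD 0.38) exceeded the difference of 0.17 ± 0.26 (SE; limma adjusted p = 0.923). Wild type 2, highest for Jag1, also had the highest mean of the basal myoepithelial markers (0.23 above the wild-type mean, against -0.11 and -0.12 on the other wild-type arrays) and of the fibroblast markers (0.36, against -0.07 and -0.28). Wild type 2 likewise had the highest pericyte (0.27) and macrophage (0.22) means, and the highest endothelial mean (0.19) among the wild-type arrays. The luminal (0.00), adipocyte (0.01) and T- and B-cell (-0.07) means were not highest there. The part of any of these cell types in the Jag1 signal was not tested.

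Jag2, the other Jagged ligand, read 4.70 and 4.77 in the knockout and 4.68, 4.70 and 4.70 in the wild type. Its range over the 5 arrays was 0.08, the smallest of the 10 genes, and the 95% interval of its fold was 0.975 to 1.08. Dll1, the Delta ligand that MMP14 is reported to cleave, read 5.04 and 5.21 in the knockout against 5.04, 5.10 and 4.90 in the wild type. Knockout 1 equalled wild type 1 and knockout 2 was the highest array. The difference in Dll1 was 0.11 ± 0.09 (SE; limma adjusted p = 0.919), a fold of 1.08 with a 95% interval of 0.901 to 1.29. A transcript level does not report on cleavage of the protein.

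Dll1 had a second probe set, dimmer, at 3.70 and 3.69 in the knockout and 3.69, 3.95 and 3.54 in the wild type. It differed by -0.03 ± 0.14 (SE; limma adjusted p = 1 over 23521 probe sets). The 2 probe sets of Dll1 thus differed in sign. By probe set number the brighter one lies among genes of the same chromosome and strand as Dll1, and the dimmer one among genes of the opposite strand.

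Rbpj encodes the DNA-binding partner of the cut receptors. Its brighter probe set, the one taken by the rule, read 8.36 and 8.41 in the knockout and 8.36, 8.25 and 8.36 in the wild type. Rbpj differed by 0.06 ± 0.05 (SE; limma adjusted p = 0.919). Knockout 1, wild type 1 and wild type 3 had the same value. This probe set may not report the gene alone. RefSeq places Rbpj on chromosome 5, but 20 of the 20 nearest probe sets by number belong to genes of chromosome 6. The nearest on either side are Nobox and Ezh2, and a pseudogene copy of Rbpj, Rbpj-ps3, lies between these genes. The other probe set, among chromosome 5 genes, was dim at 3.83 and 4.04 in the knockout and 3.67, 4.06 and 3.79 in the wild type. Its difference was 0.10 ± 0.15 (SE; limma adjusted p = 0.926 over the 23521 probe sets), so neither probe set gave a called change and the level of Rbpj itself is uncertain.

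Among the targets, Hes1, a repressor that is switched on by Notch in most tissues, read 7.67 and 7.65 in the knockout against 7.59, 7.50 and 7.65 in the wild type. Knockout 1 was the highest array and knockout 2 equalled wild type 3, so the groups touched without separating. The difference was 0.08 ± 0.05 (SE; limma adjusted p = 0.919), and the 95% interval of the fold was 0.952 to 1.18.

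Hey1, a repressor best known in vessels and heart, had the largest range of the 10 genes, 0.71. It read 6.02 and 6.73 in the knockout and 6.07, 6.12 and 6.07 in the wild type, so knockout 1 was the lowest and knockout 2 the highest array. The difference was 0.29 ± 0.24 (SE; limma adjusted p = 0.919), a fold of 1.22 with a 95% interval of 0.764 to 1.96. It rested on knockout 2: relative to the wild-type mean that array stood at 0.65 and knockout 1 at -0.06.

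**Figure D2:**
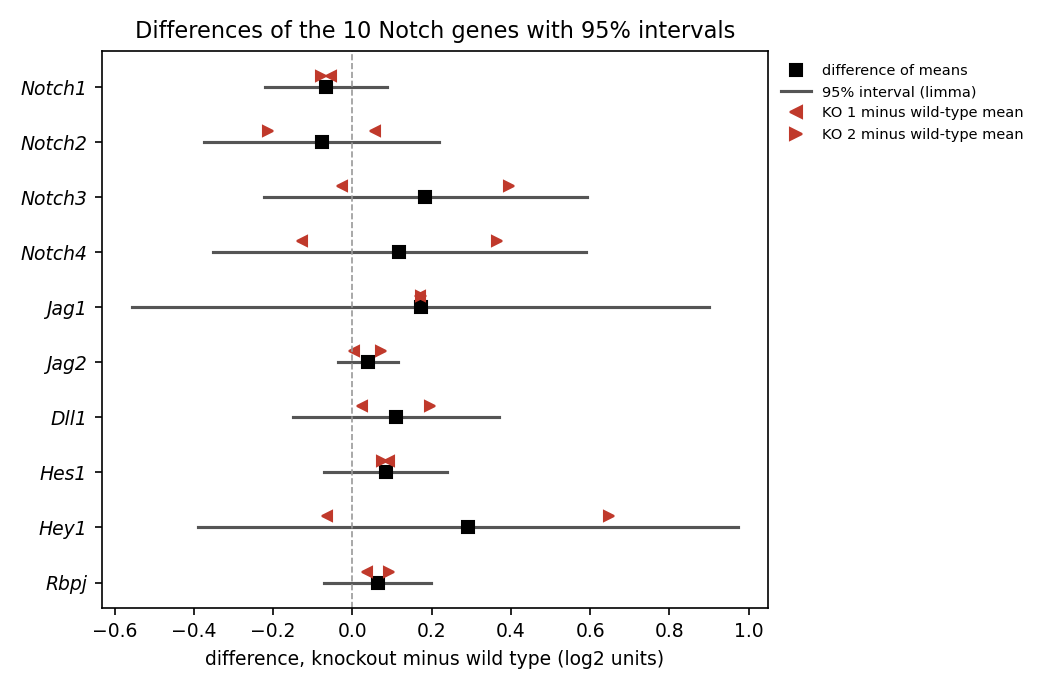
Difference of each gene (x axis, knockout minus wild type in log2 units; squares) with limma's 95% interval (lines) and the 2 knockout arrays relative to the wild-type mean (red triangles, pointing left for knockout 1 and right for knockout 2). Every interval spans 0, and for Notch2, Notch3, Notch4 and Hey1 the knockout arrays lie on opposite sides of 0.

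Leaving out 1 knockout array changed the calls. Without knockout 1, limma called 2 of the 10 genes, Hey1 (0.65, adjusted p = 0.0157) and Notch4 (0.36, adjusted p = 0.0355), beside 7.92% of all genes. Without knockout 2 it called 0 of 10, beside 3.76% of all genes. Such a fit takes the spread of the single knockout array from the wild type, and Notch4 had the same value on wild type 1 and 2. To 6 decimals, 8 of the 10 genes had equal values on at least 2 arrays, all but Jag1 and Hey1, as 68.8% of all genes had. For all 8 the shared value was the median of the 5 arrays, as for 99.8% of the 15250 genes with equal values. Equal values enter the estimated spread on which the intervals rest, and how far they lower it was not tested.

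Hey1, Notch3 and Notch4, high on knockout 2, are genes also used by vessels. Hey2, a relative of Hey1 and an arterial gene, was singled out after its values were seen. It read 4.48 and 5.29 in the knockout and 4.95, 4.99 and 4.99 in the wild type, so the 2 knockout arrays lay on either side of all wild-type arrays. Without knockout 1 its difference was 0.31 (limma adjusted p = 0.0345), and without knockout 2 it was -0.50 (adjusted p = 0.0296), so it was called in opposite directions. With both, it was -0.10 ± 0.27 (SE; limma adjusted p = 0.977). Lowest on knockout 1 and highest on knockout 2 was the order for 2 of the 10 genes, Notch4 and Hey1, and for 2 of 49 other pathway genes, Hey2 and Psen2, against 6.37% of all genes.

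Marker lists of other cells moved on the same arrays. The 13 endothelial markers had a mean 0.39 below the wild-type mean on knockout 1, with 0 of 13 above it, and 0.28 above it on knockout 2, with 11 of 13 above. Of these markers, 6 of 13 were lowest on knockout 1 and highest on knockout 2. Their mean log2 signal was 6.18 and 6.86 in the knockout and 6.42 to 6.77 in the wild type. Their lowest value was 4.75, beside array medians of 4.24 to 4.29 over all probe sets. The 8 pericyte markers stood at -0.26 on knockout 1 and 0.23 on knockout 2. Their mean log2 signal was 5.39 and 5.88 in the knockout and 5.48 to 5.92 in the wild type. The lowest value of the pericyte list was 3.63, below the array medians. The 10 luminal markers went the other way, at 0.13 on knockout 1 and -0.19 on knockout 2, with means of 9.36 and 9.04 against 9.21 to 9.24. On knockout 1, 9 of 10 were above their wild-type means, and on knockout 2, 3 of 10 were. Singled out after their values were seen, Muc1 (-0.68), Cldn3 (-0.57) and Elf3 (-0.38) lay furthest below on knockout 2. Krt8 stood at -0.08 and Epcam at 0.00 on that array. The basal and fibroblast means were also high on knockout 2, at 0.19 and 0.20, beside 0.06 and 0.04 on knockout 1. On knockout 2, 6 of 9 basal and 7 of 10 fibroblast markers were above their wild-type means. The basal markers Oxtr (0.67), Myh11 (0.57) and Mylk (0.48) stood highest there, while Krt14 stood at 0.03 and Krt17 at -0.15. These genes too were singled out after their values were seen. Oxtr was dim, at 3.44 to 4.15 over the arrays, below the array medians of 4.24 to 4.29. The 7 adipocyte markers stood at -0.10 and 0.16 on knockout 1 and 2, and the 9 macrophage markers at 0.01 and -0.28. All 7 T- and B-cell markers had a lower mean in the knockout, as 10988 of all 22180 genes had. They stood at -0.35 and -0.24 on the knockout arrays and at 0.27, -0.07 and -0.20 on wild type 1, 2 and 3. Their mean log2 signal was 4.03 and 4.14 in the knockout and 4.18 to 4.66 in the wild type, near the array medians of 4.24 to 4.29. Notch1 was highest on wild type 2, at 7.35. The part of T and B cells in the lower mean of Notch1 was not tested. None of the marker genes passed limma's test.

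Within the wild type the vessel lists did not move alike with Hey1, Hey2, Notch3 and Notch4. On wild type 2 the endothelial mean was 0.19 and the pericyte mean 0.27 above the wild-type mean, while Hey1, Hey2, Notch3 and Notch4 stayed within 0.05 of their wild-type means on all 3 wild-type arrays. Dll4, the Delta ligand of sprouting endothelium, did follow the lists there: it read 4.99 and 5.20 in the knockout and 5.05, 5.26 and 4.97 in the wild type, highest on wild type 2. Among the wild-type arrays Jag1 (7.37), Dll1 (5.10) and Notch1 (7.35) were also highest on wild type 2, while Hes1 (7.50) and Rbpj (8.25) were lowest there. Notch3 and Notch4 had the same value on wild type 1 and 2, and Hey2 had the same value on wild type 2 and 3. Whether such equal values account for the small wild-type spread of these genes was not tested. The part of vessel cells in the signals of Hey1, Hey2, Notch3 and Notch4 was not tested.

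**Figure D3:**
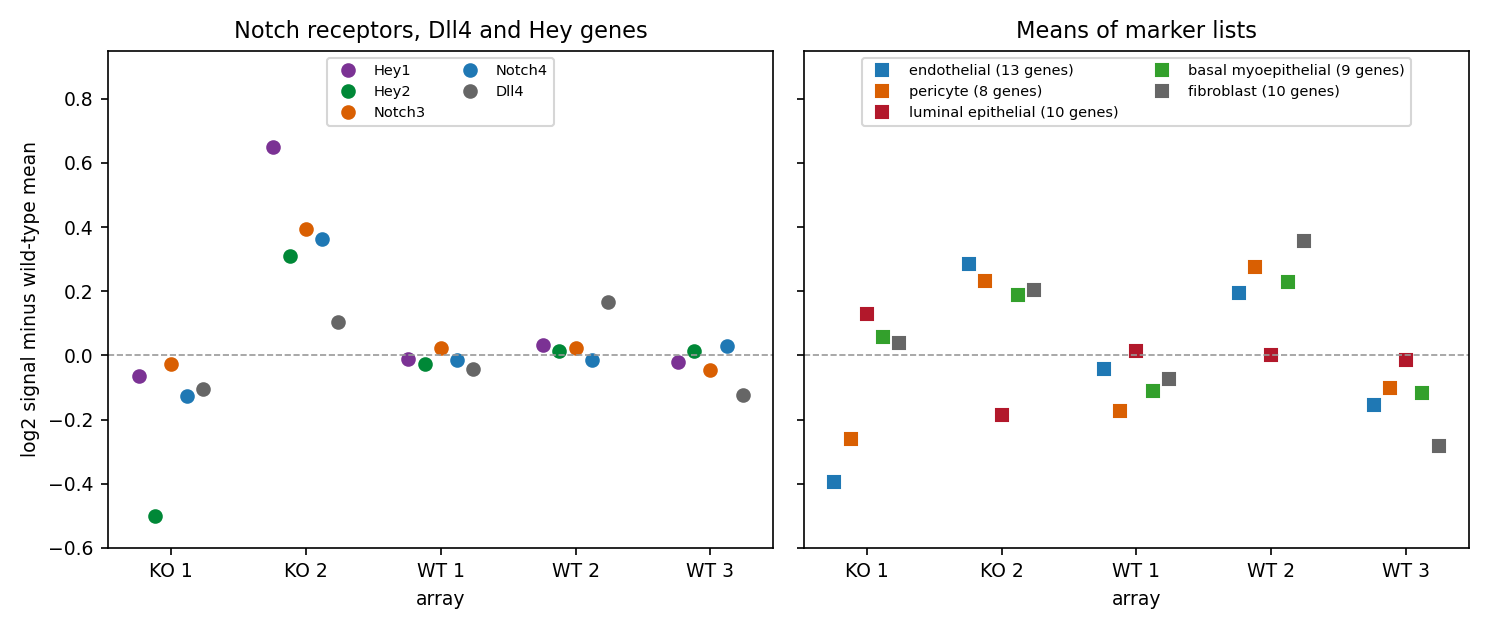
Log2 signal minus the wild-type mean (y axis) on each array (x axis) for 5 Notch pathway genes (left, circles) and for the means of 5 marker lists (right, squares). On knockout 2 Hey1, Hey2, Notch3 and Notch4 are high, as are the endothelial, pericyte, basal and fibroblast lists, while the luminal list is low. On wild type 2 the endothelial, pericyte, basal and fibroblast lists are high while these 4 genes are not. On knockout 1 the endothelial list is at -0.39, Hey2 at -0.50, Notch4 at -0.13, Hey1 at -0.06 and Notch3 at -0.03.

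RBPJ binds a short DNA word, GTGGGAA, at many Notch targets. The promoters of Notch3, Notch4 and Hey2, 3 vessel-related genes with a high value on knockout 2, are shown to set a window with this word beside windows without it, and were chosen after their values were seen. The windows run from 250 bases before the gene's start to 10 after it, 5′ to 3′ on the gene's strand, from RefSeq on GRCm38.p6, and capitals mark GTGGGAA or, on the other strand, TTCCCAC. They are Notch3 at chr17:32166881-32167140 (minus strand), Notch4 at chr17:34564045-34564304 (plus strand) and Hey2 at chr10:30842774-30843033 (minus strand).
Notch3: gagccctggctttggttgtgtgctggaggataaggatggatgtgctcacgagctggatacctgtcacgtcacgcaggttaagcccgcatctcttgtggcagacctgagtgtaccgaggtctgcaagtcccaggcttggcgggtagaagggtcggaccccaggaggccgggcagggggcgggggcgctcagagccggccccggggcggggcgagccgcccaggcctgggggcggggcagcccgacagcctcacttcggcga
Notch4: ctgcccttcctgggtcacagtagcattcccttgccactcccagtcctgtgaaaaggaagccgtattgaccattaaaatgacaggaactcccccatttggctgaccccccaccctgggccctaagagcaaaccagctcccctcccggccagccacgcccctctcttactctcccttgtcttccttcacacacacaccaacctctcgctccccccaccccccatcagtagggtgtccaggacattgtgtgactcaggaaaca
Hey2: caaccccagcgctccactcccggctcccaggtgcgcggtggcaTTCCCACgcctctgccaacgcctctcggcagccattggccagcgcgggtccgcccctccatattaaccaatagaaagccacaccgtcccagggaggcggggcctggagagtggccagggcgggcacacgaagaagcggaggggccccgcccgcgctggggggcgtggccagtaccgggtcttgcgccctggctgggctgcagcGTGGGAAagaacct
The Hey2 window holds the word at 2 places that do not overlap, and those of Notch3 and Notch4 hold it at 0. The table had entries for 8 of the 10 genes, not for Hes1 and Hey1, and 0 of these 8 held the word, against 5.58% of all 32851 promoter windows of this length. Of the 38 other pathway genes with an entry, 8 held it, among them Hes5, Hes7 and Lfng, in 8 of their 50 windows. A match describes the sequence only, and says nothing of binding in these cells.

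The rest of the pathway showed no called change either. Of 51 other pathway genes listed by role, 49 were measured, 0 passed limma's test and 0 had an unadjusted p under 0.05. The mean was higher in the knockout for 22 and lower for 23, and the other 4 had the same value on all 5 arrays. Their median difference was 0.00 and their differences ran from -0.16 to 0.17. The groups did not overlap for 2 of the 49, Neurl1b higher and Psenen lower in the knockout, against 5.43% of all genes.

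**Figure D4:**
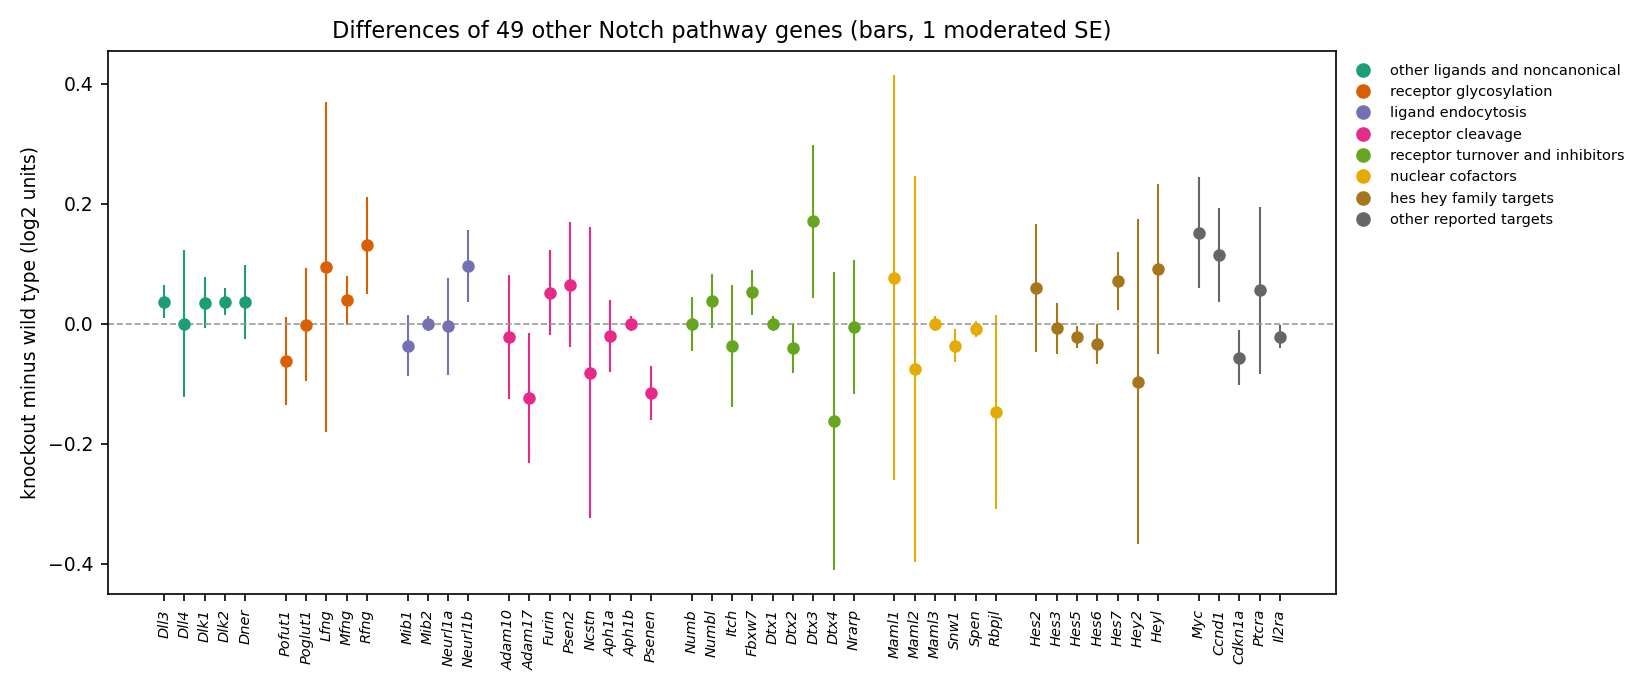
Difference of each of 49 other Notch pathway genes (y axis, knockout minus wild type in log2 units; bars, 1 moderated SE), grouped by role along the x axis. The differences lie between -0.16 and 0.17, and the widest bars belong to Maml1 and Maml2.

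Psenen, a subunit of gamma-secretase, was the gene of the pathway with the largest moderated t. It read 8.28 and 8.16 in the knockout and 8.32, 8.31 and 8.37 in the wild type, so both knockout arrays were the lowest. The difference was -0.12 ± 0.04 (SE; limma adjusted p = 0.919). Its other probe set, singled out after its values were seen, read 7.91 and 7.93 against 8.42, 8.38 and 8.24. There too both knockout arrays lay below all wild-type arrays, by a mean of -0.43 ± 0.07 (SE; limma unadjusted p = 0.00358, adjusted p = 0.919 over 23521 probe sets). By number this second probe set lies among genes of chromosome 7, where RefSeq places Psenen, and the brighter one among genes of chromosome 4. The same holds for Aph1a, another gamma-secretase subunit, whose brighter probe set lies among genes of chromosome 1 and whose gene lies on chromosome 3. For the other 47 of the 49 genes and for 9 of the 10 Notch genes, all but Rbpj, the probe set used lay among genes of the gene's own chromosome.

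Of the other receptor proteases, Adam17, a sheddase, was at -0.12 ± 0.11 (SE), with 7.20 and 6.99 in the knockout and 7.35, 7.20 and 7.10 in the wild type. Of the 8 receptor cleavage genes measured, 2 had a higher and 5 a lower mean in the knockout. Among 5 enzymes that glycosylate the receptors, 3 were higher and 2 lower in the mean, led by the fringe enzyme Rfng at 0.13 ± 0.08 (SE), and Mfng, another fringe, was at 0.04 ± 0.04. In the group of 4 genes for ligand endocytosis, the ubiquitin ligase Neurl1b was at 0.10 ± 0.06 and Mib1, which ubiquitinates ligands, at -0.04 ± 0.05. None of these passed the test.

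The 5 other and atypical ligands all had a higher mean in the knockout, by 0.00 (Dll4) to 0.04, as 10261 of all 22180 genes had a higher mean. All but Dll4 were dim, with wild-type means of 3.13 to 3.74, below the array medians of 4.24 to 4.29. Dlk2 was at 0.04 ± 0.02 (SE) and Dll3 at 0.04 ± 0.03, and Dll3 read 3.63 on every array except knockout 2, at 3.70. Among 9 genes of receptor turnover and inhibition, Fbxw7, a ubiquitin ligase that degrades the cut receptor, was at 0.05 ± 0.04 and Dtx3 at 0.17 ± 0.13. In the group of 6 nuclear cofactors, Snw1 was at -0.04 ± 0.03 and Rbpjl, a relative of Rbpj, at -0.15 ± 0.16. Fbxw7 read 6.06 on every array except knockout 2, at 6.17, and Snw1 read 8.32 on every array except knockout 2, at 8.25. Dll3, Fbxw7 and Snw1 thus had equal values on all wild-type arrays, from which a fit without knockout 1 takes its spread. Dtx4 read 7.46 and 6.72 in the knockout and 7.24, 7.29 and 7.21 in the wild type. Of these and the following genes, Dll3, Fbxw7, Snw1, Hes7 and Dtx4 were called by limma, along with Hey2, when knockout 1 was left out, and with knockout 2 left out Hey2 was the 1 called. These are 6 and 1 of 49 genes, beside 7.92% and 3.76% of all genes.

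The 7 other Hes and Hey genes had 3 higher and 4 lower means. Hes7, known from the segmentation clock, was at 0.07 ± 0.05 (SE) and Hes5, a target in neural progenitors, at -0.02 ± 0.02. Both were dim, with wild-type means of 3.58 and 3.80, below the array medians of 4.24 to 4.29 over all probe sets. Of 5 genes reported as Notch targets in other tissues, Myc, the growth regulator, read 9.97 and 10.05 in the knockout against 9.79, 10.01 and 9.78 in the wild type, 0.15 ± 0.09 apart in the mean. Ccnd1, which encodes cyclin D1, was at 0.11 ± 0.08. Knockout and wild type overlapped for both.

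The label numbers of the arrays fall in 2 runs of consecutive numbers, and the labels do not say what a run stands for. Knockout 1 was in run 1 with wild type 1 and 2, and knockout 2 was in run 2 with wild type 3. Mmp14 was lower in the knockout than on each wild-type array of the same run, by a mean difference of -0.43 in run 1 and -0.46 in run 2. The difference of Hey1 was -0.07 within run 1 and 0.67 within run 2. The corresponding values were -0.05 and 0.44 for Notch3, -0.11 and 0.33 for Notch4, -0.03 and 0.31 for Dll1, 0.04 and 0.43 for Jag1 and 0.04 and -0.17 for Notch2. For Hes1 they were 0.13 and 0.00, and for Notch1 -0.08 and -0.03. Run 2 has 1 array per genotype, and there these values carry no test.

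The profile of a gene over the 5 arrays was set against the other genes by the mean absolute difference between profiles centred on their own means, among named genes with a range of 0.5 to 2 times that of the gene. The 3 most alike were Erich6b, Rab5b and Etaa1 for Hes1 (0.01 log2 units each, among 8668 genes). They were Chadl, Oxtr and Fabp9 for Hey1 (0.02 to 0.03, among 4782 genes) and Unc93b1, Rassf9 and Lipg for Notch1 (0.01 or less, among 8440 genes). Chadl, the nearest to Hey1, read 5.52 on every array except knockout 2, at 6.19, and Oxtr, the oxytocin receptor and one of the basal markers, read 4.15 there and 3.44 to 3.50 elsewhere. With 5 arrays such a likeness is a description.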

How the data were processed

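The authors deposited log2 signals, with 1 column for each array and 1 row for each of 41345 probe sets. Per the submitters' processing notes, RMA and limma were used, without versions. The array model and the build were not given in the sources used here. GEO's platform annotation lists 1 symbol for 23521 and several for 1814, and the other 16010 are unnamed here. Only those with 1 symbol were used, which left 22180 genes.

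The test was two-sided, from lmFit and eBayes of limma 3.58.1 (R 4.3.3) without covariates, adjusted by Benjamini-Hochberg over all genes. Intervals are 95% intervals from the moderated SE. The procedure was tested on simulated data. Of the other pathway genes, the 2 per role list with the largest absolute moderated t are named. Genes named outside that rule are said to be so, apart from Dll4, Psen2, Dtx4, Aph1a, Maml1, Maml2 and Lfng, which were named after their values were seen. The Notch genes and all lists were chosen with earlier results of these data known. No detection calls were used. Precision is limited by having 5 arrays.

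Alternatives were quantile normalisation, median centring, a filter that drops the dimmest 40 percent of genes, averaged probe sets, a variance trend with intensity, the array run as fixed or random block, the replicate number as a block, and leaving out each array. Neighbours were the 10 named probe sets on each side by probe set number, placed by RefSeq (GRCm38.p6).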

Additional observations from a re-analysis of the deposited data

How the results depend on the processing

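Without leaving out single arrays, 0 of the 10 Notch genes, 0 of 49 other pathway genes and 0 genes of the table passed limma's test under each alternative run that tested them. Leaving out dim genes tested 10, 39 and 13308 genes, and the genes with 5 different values, an alternative added after seeing the data like run 1 alone, were 2, 20 and 6930, with 0 calls in each. Leaving out 1 array gave 0 to 2 Notch genes, 0 to 6 other pathway genes and 0 to 1757 genes of the table; the calls came without knockout 1 or without knockout 2 (835 genes of the table), and 0 without a wild-type array. The replicate block, in which wild type 3 has no partner and adds nothing, gave 0 calls among the 10, the 49 and all genes (817 at an unadjusted p under 0.05, against 288). Deviations from the group means correlated across genes at 0.25 for knockout 1 with wild type 1 and at -0.04 for knockout 2 with wild type 2. With 2 knockout arrays their deviations are opposite by construction. These values therefore cannot decide whether the replicate numbers pair the arrays. Signs turned in run 1 alone for Notch2 (0.036), Notch3 (-0.048), Notch4 (-0.11), Dll1 (-0.033) and Hey1 (-0.074), and for Dll1 with its other probe set (-0.032). With 1 array left out, Notch2 ranged from -0.21 to 0.058, Notch3 from -0.026 to 0.39, Notch4 from -0.13 to 0.36 and Hey1 from -0.064 to 0.65; the negative values of the last 3 came without knockout 2. Jag1 ranged from 0.046 to 0.39 (highest without wild type 2), Dll1 from 0.024 to 0.20 and Jag2 from 0.0053 to 0.073 (both lowest without knockout 2), Notch1 from -0.089 to -0.021, Hes1 from 0.042 to 0.12 and Rbpj from 0.028 to 0.092. The cause was not tested. Notch1, Jag1, Jag2, Hes1 and Rbpj turned sign in none of the alternatives run, and quantile normalisation or median centring turned none of the 10. No detection calls were used, so no limit by signal over background can be given.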
